A study of Mus musculus with 2 samples.

Results

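DNA replication and S phase genes were followed here as a group of 37 genes, found by exact gene symbol among the 31053 genes counted in single LSK cells of mouse bone marrow. LSK cells lack lineage markers and carry Sca1 and c-Kit, a gate that holds hematopoietic stem cells and early multipotent progenitors. Each group had 1 library made with the 10x Genomics 3' assay, which counts transcripts by unique molecular identifiers (UMIs). Both came from C57BL/6J mice aged 6 to 8 weeks: the control library from animals without irradiation, the irradiated library from animals taken 15 days after 5 Gy to the whole body. The labels name no genetic change in either group and do not say how many mice were pooled. With 1 library a group no difference between groups was tested, and no replicate spread exists. Intervals below are exact Clopper-Pearson 95% intervals and cover counting error only.

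Before a cell divides, the MCM2-7 helicase is loaded at replication origins with the help of CDC6, is held back from reloading by geminin, and is switched on when CDC45 and the GINS complex join it. Polymerases, the PCNA clamp and its loaders then copy the strands, while ribonucleotide reductase and thymidylate synthase supply nucleotides and histone chaperones rebuild chromatin behind the fork. Many of these genes are transcribed by E2F factors around the start of S phase. Long-term stem cells in adult marrow are mostly quiescent, and the progenitors below them divide often.

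The members' promoters are shown because E2F binding words are a feature that the choice of genes by symbol did not use. The words searched were TTTCCCGC, TTTCGCGC, TTTGCCGC and TTTGGCGC, on both strands, in RefSeq windows of 300 bases (250 before to 50 after a start site, build GRCm38.p6). Of the 37 members, 29 matched a window, and 12 of these (41.4%) held at least 1 word. The share was 34.4% of 64 other replication genes (a list of helicase, polymerase, nucleotide, chromatin and cyclin genes outside the 37), 6.38% of 47 genes of G2 and mitosis, and 2.61% of all 27025 genes with a window. CCAAT, searched the same way, occurred in 75.9% of the members' promoters, 43.8% of those of the other replication genes, 76.6% of the G2 and mitosis list and 41.1% of all genes. TTTGAA, the core of the CHR element of mitotic genes, was in 20.7% of members, 20.2% of all genes and 70.2% of the G2 and mitosis list. Printed below, 5′ to 3′ on the gene's own strand with E2F words in capitals, are the parts outside annotated exons for the members with the 3 highest and the 3 lowest irradiated over control ratios among those with a word. For Hells only 30 bases around the word are printed, since that word lies in an annotated exon. The Cdc6 part lies within the annotated gene (chr11:98907801-98923940), before a RefSeq start site downstream of the annotated gene start.
Cdc6, chr11:98907982-98908150, plus strand: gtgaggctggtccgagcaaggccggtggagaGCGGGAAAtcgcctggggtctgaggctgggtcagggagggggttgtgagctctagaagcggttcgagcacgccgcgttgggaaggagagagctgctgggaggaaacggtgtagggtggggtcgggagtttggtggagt
Mcm5, chr8:75109259-75109508, plus strand: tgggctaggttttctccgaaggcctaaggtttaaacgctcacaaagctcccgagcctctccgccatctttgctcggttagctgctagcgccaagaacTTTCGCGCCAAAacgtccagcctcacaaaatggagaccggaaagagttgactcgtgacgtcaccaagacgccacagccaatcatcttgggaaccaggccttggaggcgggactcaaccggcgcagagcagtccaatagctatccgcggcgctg
Hells, chr19:38930917-38930946, plus strand: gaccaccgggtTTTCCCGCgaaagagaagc
Pola1, chrX:93632156-93632405, minus strand: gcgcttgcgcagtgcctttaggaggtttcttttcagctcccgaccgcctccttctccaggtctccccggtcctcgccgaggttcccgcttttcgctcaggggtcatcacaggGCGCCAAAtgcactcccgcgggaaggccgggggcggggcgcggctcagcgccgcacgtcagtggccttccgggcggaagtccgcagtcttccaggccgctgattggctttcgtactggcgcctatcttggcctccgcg
Casp8ap2, chr4:32615220-32615450, plus strand: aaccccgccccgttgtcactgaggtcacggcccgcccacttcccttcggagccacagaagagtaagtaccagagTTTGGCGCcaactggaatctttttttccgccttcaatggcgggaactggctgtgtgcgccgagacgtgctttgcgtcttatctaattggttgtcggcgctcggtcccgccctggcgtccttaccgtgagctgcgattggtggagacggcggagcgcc
Dtl, chr1:191575545-191575635, minus strand: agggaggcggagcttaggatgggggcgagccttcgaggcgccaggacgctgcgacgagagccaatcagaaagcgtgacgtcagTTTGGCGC
In Mcm5 a pair of words on opposite strands overlap in 1 stretch of capitals, and in Dtl the word lies next to the start site. Words occurred on both sides of the ranking: Cdc6 and Mcm5 had among the higher ratios, and Dtl and Casp8ap2 the lowest. The windows of Rrm2, Cdc45 and E2f8, the members with the highest ratios, held none of these 4 words, which says nothing about the factors bound there.

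After filtering, 7188 control cells with a median of 16083.5 UMIs and 5112 irradiated cells with a median of 29615 UMIs remained. Mitochondrial transcripts took a median of 4.38% of a control and 3.24% of an irradiated cell's UMIs, and 16 cell barcodes occurred in both libraries. Transcripts of both sort antigens were present, at levels that differed in opposite directions; levels are given as CPM, the count of a gene divided by all UMIs and scaled to 1000000. Kit, which encodes c-Kit, had 132 CPM in the control and 73.5 CPM in the irradiated library (log2 ratio -0.85), and Ly6a, which encodes Sca1, 156 and 218 CPM (0.48). The mix of cells differed between libraries. Of the neutrophil-primed markers 8 of 8 measured were higher in irradiated cells (summed 1555 against 6637 CPM), as were 9 of 9 erythroid-primed markers (120.02 against 454 CPM). All 6 measured lymphoid-primed markers (927 against 355 CPM) and all 5 measured stem cell markers (257 against 91.4 CPM) were lower. No marker of these 4 lists was at 0 in both libraries, and the part of depth, mitochondrial share, sort antigen levels and cell mix in the results over all cells was not tested; values within cell clusters are given further on.

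Over all cells, the 37 genes together took slightly more of the UMIs in irradiated cells, and genes of nucleotide supply had the largest summed ratio. Control cells gave them a summed level of 3166 CPM and irradiated cells one of 3551 CPM, which makes the log2 ratio 0.17 (interval 0.16 to 0.17). By a size rule, the CPM in one library at least 25% above that in the other at a mean of at least 5 CPM, 9 of 37 members (24.3%) were higher in irradiated cells, against a background of 17.2% of 9032 genes. None was lower, where the background was 28.3%. Rrm2 alone passed a 2-fold ratio, which 1.41% of all genes did. The median log2 ratio was 0.14 over the members and -0.06 over all genes. With every cell weighted equally, or thinned to 5000 UMIs, 16 members were higher (backgrounds 17.9% and 18.5%). With cells held to at most 5% mitochondrial UMIs, 5 were higher (background 15.3%), Dtl was lower (background 26.7%), and the summed log2 ratio was 0.08.

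**Figure D1:**
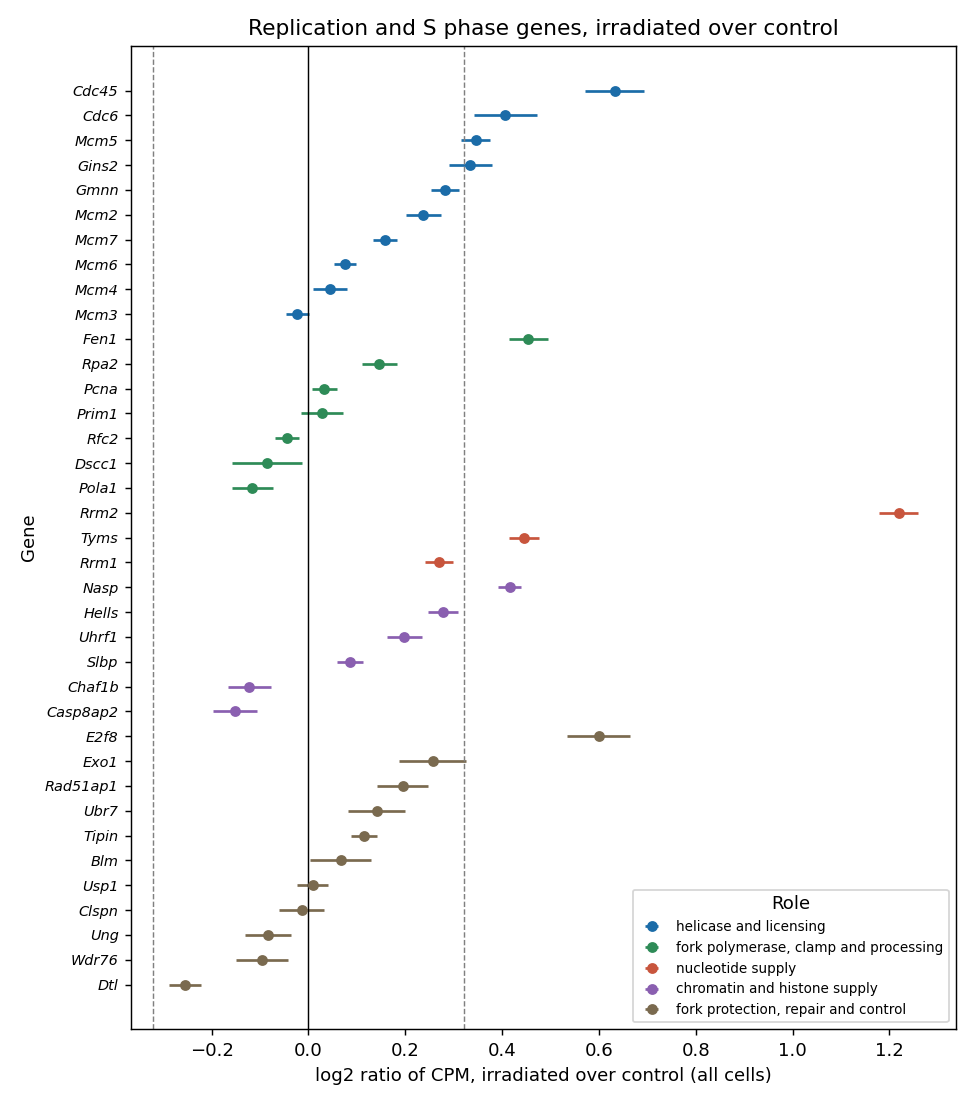
Each point is the log2 ratio of CPM (irradiated over control, all cells, x axis) of 1 of the 37 genes, grouped and coloured by role, with the 95% counting interval as a bar; dashed lines mark a level 25% above that of the other library. Rrm2 lies at 1.22, apart from Cdc45 at 0.63 and E2f8 at 0.60, and Dtl is lowest at -0.26.

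Nucleotide supply stood highest among the roles, with a summed level of 263 CPM in the control and 387 CPM in the irradiated library (log2 ratio 0.56). Rrm2, the small, cell cycle regulated subunit of ribonucleotide reductase (chr12:24708241-24714146, GRCm38, plus strand), had 49.1 CPM in the control and 114 CPM in the irradiated library. That is a log2 ratio of 1.22 (interval 1.18 to 1.26), or 2.33-fold, and it lay between 1.08 and 1.40 under every alternative processing run. Tyms, thymidylate synthase, had 95.7 and 130.2 CPM (log2 ratio 0.44), also higher in irradiated cells. Rrm1, the large reductase subunit, had 119 and 143 CPM (log2 ratio 0.27) and did not reach the size rule. The intervals of the reductase subunits did not overlap.

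The 10 helicase and licensing genes summed to 1070 CPM in the control and 1204 CPM in the irradiated library. Their summed log2 ratio of 0.17 was near that of all 37 genes. Of these 10 genes, 4 (40%) were higher in irradiated cells, against 17.2% of all genes. They were Cdc45, Cdc6, Gins2 and Mcm5. Cdc45, which joins the helicase when an origin fires (chr16:18780447-18811987, minus strand), had 24.2 CPM in the control and 37.6 CPM in the irradiated library (log2 ratio 0.63, interval 0.57 to 0.69). Cdc6, the loading factor with part of its RefSeq window printed above, had 22.3 and 29.5 CPM (log2 ratio 0.41). Gins2, a GINS subunit, had 50.6 and 63.8 CPM (log2 ratio 0.33). All 3 were higher in the irradiated library, and none of them is a ring subunit of the helicase. Among the 6 ring subunits only Mcm5 was higher, at 110.2 and 140.1 CPM (log2 ratio 0.35). Mcm2 had 77.6 and 91.4 CPM (0.24), Mcm7 173 and 193 CPM (0.16) and Mcm6 213 and 224 CPM (0.08). Mcm4 had 87.1 and 89.8 CPM (0.04) and Mcm3 191 and 188 CPM (-0.02, interval -0.05 to 0.0009). The subunits of a complex that assembles in equal numbers thus spanned log2 ratios from -0.02 to 0.35, and the sign for Mcm3 and Mcm4 changed with the processing. Gmnn, geminin, the inhibitor of reloading, had 121 and 148 CPM (0.28) and stayed under the size rule.

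The 7 genes of the fork itself were nearly level, with a summed log2 ratio of 0.06. Fen1, the flap nuclease that trims Okazaki fragments, was the 1 gene higher in irradiated cells (14.3%, against 17.2% of all genes). It had 60.2 CPM in the control and 82.5 CPM in the irradiated library (log2 ratio 0.45). Pcna, the sliding clamp, had 155 and 159 CPM (log2 ratio 0.03), so the gene most often used as a replication marker hardly differed between libraries. Its pseudogene Pcna-ps2 held 87 and 160 UMIs, few beside the 21463 and 25878 of Pcna. Rpa2 (single-strand binding) and Prim1 (primase) had log2 ratios of 0.15 and 0.03. Pola1, the catalytic subunit of polymerase alpha, had 61.9 and 57.1 CPM (log2 ratio -0.12), below control but short of the size rule. Rfc2 and Dscc1, of clamp loaders, were at -0.04 and -0.09. The signs for Pcna, Prim1, Pola1, Rfc2 and Dscc1 changed with the processing, and Pola1 ran from -0.21 to 0.10.

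Genes of chromatin and histone supply summed to 599.9 CPM in the control and 688 CPM in the irradiated library (log2 ratio 0.20). Of these, 1 of 6 was higher (16.7%, against 17.2% of all genes). Nasp, a chaperone of histones H3 and H4, had 173 and 231 CPM (log2 ratio 0.42, interval 0.39 to 0.44). Hells, a chromatin remodeler, and Uhrf1, which brings the maintenance methyltransferase to hemimethylated DNA, had log2 ratios of 0.28 and 0.20. Slbp, the binding protein of histone mRNA stem loops, was at 0.09. Chaf1b, a subunit of the chromatin assembly factor CAF-1, had 56.95 and 52.3 CPM (log2 ratio -0.12), and Casp8ap2, which takes part in histone gene expression, had 56.5 and 50.9 CPM (-0.15). The histone chaperones of the group thus lay on both sides of 0, with Nasp above control and Chaf1b below it.

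The 11 genes of fork protection, repair and control summed to 622 CPM in the control and 637 CPM in the irradiated library (log2 ratio 0.03). E2f8, an atypical E2F factor that represses E2F targets late in S phase (chr7:48866429-48881596, minus strand), was the 1 gene higher (9.09%, against 17.2% of all genes). It had 21.8 and 33.1 CPM (log2 ratio 0.60, interval 0.53 to 0.66). Dtl, the substrate receptor of the CRL4-Cdt2 ubiquitin ligase that clears licensing factors in S phase (chr1:191537356-191575544, minus strand), had 103 CPM in the control and 86.5 CPM in the irradiated library. Its log2 ratio of -0.26 (interval -0.29 to -0.22) was the lowest of the 37, short of the size rule, and below 0 under every alternative. Wdr76 and Ung, the uracil glycosylase, had log2 ratios of -0.10 and -0.08. Exo1 and Blm, which resect and unwind DNA, were at 0.26 and 0.07. Ubr7, Tipin, Usp1 and Clspn lay between -0.01 and 0.14, among them the fork protection factors Tipin and Clspn. The signs for Wdr76, Ung, Blm, Usp1 and Clspn changed with the processing.

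Among replication genes outside the 37, more were higher than lower. Of 76 measured genes on the list of other replication genes, 23 were higher (30.3%, against 17.2% of all genes) and 1 lower (1.32%, against 28.3%). Their sum was 4646 CPM in the control and 5359 CPM in the irradiated library (log2 ratio 0.21). Ccne1, cyclin E1, which drives entry into S phase, had 6.74 CPM in the control and 20.9 CPM in the irradiated library (log2 ratio 1.64, interval 1.53 to 1.74). Gins1 (0.70), Ccna2 (0.68), Asf1b (0.67) and Ccne2 (0.64) followed, a GINS subunit, cyclin A2, a histone chaperone and cyclin E2. The 1 lower gene was Pold4, a small polymerase delta subunit, with 73.9 and 53.5 CPM (-0.47). Next lowest were Atr (-0.26), Topbp1 (-0.24), Rrm2b (-0.21) and E2f2 (-0.21). Rrm2b, the other small reductase subunit, thus had a ratio of the opposite sign to Rrm2. Of 54 genes of G2 and mitosis, 25 were higher (46.3%, against 17.2% of all genes) and 3 lower (5.56%, against 28.3%). Their sums were 6048 and 7299.6 CPM (log2 ratio 0.27).

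Per cell, the libraries differed in the lower part of the distribution and met at its upper end. With each cell thinned to 5000 UMIs (66 control and 59 irradiated cells were shallower and left out), control cells held a median of 11 UMIs of the 37 genes and irradiated cells 16. The 10th percentile was 2 in control and 5 in irradiated cells and the 25th percentile 5 and 10, while the 75th was 21 and 23 and the 90th 28 in both. Cells with few replication transcripts thus made up more of the control library. UMIs of the G2 and mitosis list had medians of 12 in control and 27 in irradiated cells, with 90th percentiles of 63 and 68.

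**Figure D2:**
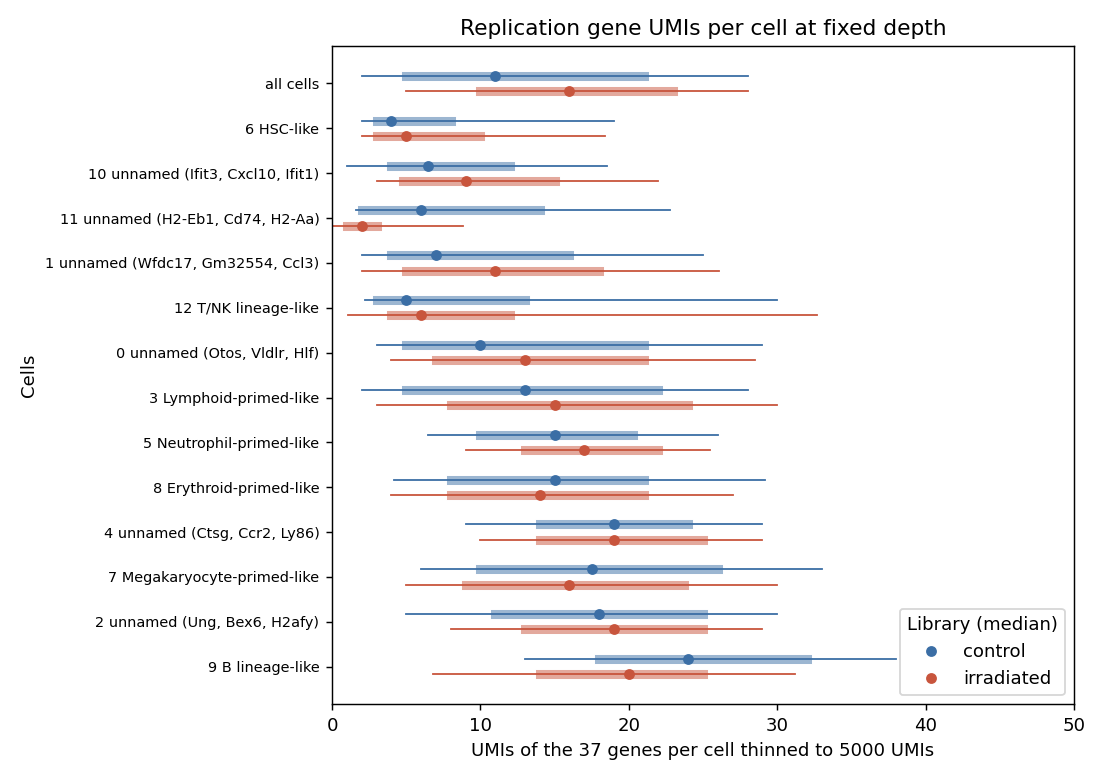
UMIs of the 37 genes per cell after thinning each cell to 5000 UMIs (x axis), by library over all cells and in each cluster (y axis); points are medians, thick bars the 25th to 75th and thin lines the 10th to 90th percentile of cells. Over all cells the medians are 11 in control and 16 in irradiated cells, HSC-like cells have medians of 4 and 5, the lowest in control, and cluster 11 has the lowest in irradiated cells, at 2.

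Cells were grouped in 13 clusters without the 37 genes, the other cell cycle lists or genes that varied with them, and a cluster was called X-like only where listed markers led it. The summed level ran over a wide range between clusters. In the control library it was lowest in cells like hematopoietic stem cells, called HSC-like (cluster 6, led by Meg3, Pdzk1ip1 and Cdkn1c), with 1844 CPM among control and 1916.5 CPM among irradiated cells. In the irradiated library it was lowest in cluster 11, led by class II genes, at 867 CPM in 74 cells. It was highest in B lineage-like cells, which were few: 110 cells of the control library gave 4947 CPM, and 24 of the irradiated library 4321 CPM. Lymphoid-primed-like cells (cluster 3, led by Cox6a2, Dntt and Cmah) had 3314 and 3595 CPM, and megakaryocyte-primed-like cells (cluster 7, led by Pf4, with Fcer1a, Cpa3 and Ms4a2 of mast cells and basophils) 3891 and 3501 CPM. Between HSC-like and lymphoid-primed-like cells the level in each library differed by far more than between libraries within either.

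**Figure D3:**
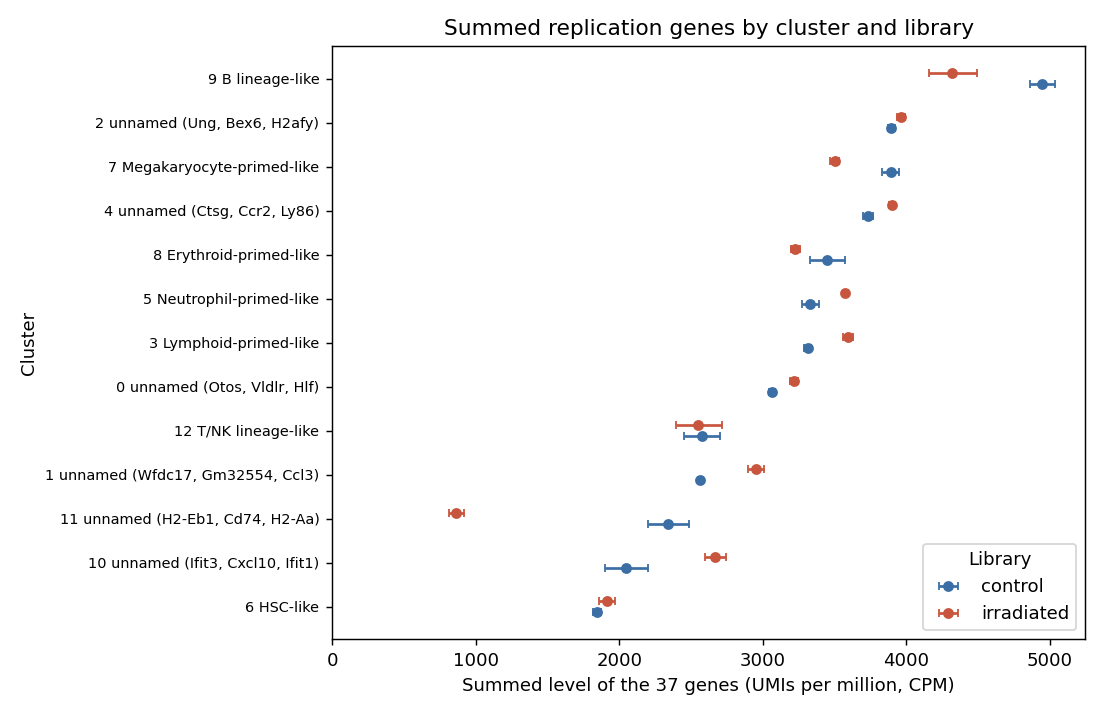
Summed level of the 37 genes in CPM (x axis) in each of 13 clusters (y axis, with name or leading genes), for control and irradiated cells; bars are 95% counting intervals. HSC-like cells lie near the bottom in both libraries (1844 and 1916.5 CPM), and cluster 11 has 2341 CPM in control but 867 CPM in irradiated cells.

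In the 7 clusters with at least 100 cells in each library, the summed log2 ratios ran from -0.15 to 0.20. Given the control library's mix of cell classes by UMIs, irradiated cells would have had 3505 CPM, a log2 ratio of 0.15 against 0.17 as measured. This value takes all unnamed clusters as 1 class, so it does not hold the mix among them fixed. Cluster 4, for example, had 7.83% of control and 23.1% of irradiated UMIs. With each cluster taken as its own class instead, a choice made after the data were seen, the log2 ratio was 0.08. The clusters with under 100 cells in 1 library were not compared. Their levels were 3332 CPM in 98 control and 3575 CPM in 969 irradiated neutrophil-primed-like cells, and 3449 CPM in 41 and 3227 CPM in 489 erythroid-primed-like cells. Cluster 10, led by the interferon-induced genes Ifit3, Cxcl10 and Ifit1, had 2047 CPM in 26 and 2668 CPM in 84 cells. Cluster 11, led by the class II genes H2-Eb1, Cd74 and H2-Aa, had 2341 CPM in 29 and 867 CPM in 74 cells. T/NK lineage-like cells had 2576 and 2551 CPM in 42 and 29 cells.

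Within HSC-like cells (849 control, 174 irradiated), 10 members were higher in irradiated cells against a background of 15.1% of genes, and 4 lower against 18.2%. E2f8 had 7.72 CPM in the control and 18.8 CPM in the irradiated library from 82 and 47 UMIs (log2 ratio 1.29, interval 0.74 to 1.82). Rrm2 had 13.4 and 25.2 CPM (0.92, interval 0.46 to 1.35), and Tyms and Rrm1 were at 0.58 and 0.46. All 3 genes of nucleotide supply were thus higher in this cluster. Rpa2 had 50.3 CPM in the control and 32.4 CPM in the irradiated library (-0.63, interval -0.99 to -0.29), and Chaf1b 70.9 and 51.3 CPM (-0.47). Ung (-0.36) and Wdr76 (-0.32) also passed the size rule, but their intervals included 0. The summed level differed little (log2 ratio 0.06) and its sign changed with the processing: it was -0.06 with at most 5% mitochondrial UMIs, where 1 member was higher, -0.17 with only the cell cycle lists left out of clustering, where 3 were higher and 8 lower, and 0.24 at a finer clustering, where 17 were higher. In 2 other alternatives no HSC-like cluster could be compared.

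In lymphoid-primed-like cells (1117 control, 420 irradiated), 6 members were higher against a background of 11.3% and 1 lower against 16.3%. Rrm2 had 49.0 and 89.7 CPM (log2 ratio 0.87), E2f8 18.7 and 27.2 CPM (0.54), Cdc45 24.99 and 36.2 CPM (0.53) and Tyms 87.4 and 120.8 CPM (0.47). These 4 genes, of nucleotide supply, E2F control and helicase activation, were also among the 5 highest over all cells. The 1 lower gene was Dscc1, of the clamp loader for sister chromatid cohesion, with 20.8 and 16.3 CPM (-0.36). Ung, Mcm3 and Chaf1b were at -0.15, -0.12 and -0.11. The count of higher members ranged from 1 to 19 and the summed log2 ratio from -0.02 to 0.34 over the alternatives run.

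Megakaryocyte-primed-like cells (204 control, 550 irradiated) were the 1 compared cluster with a lower sum in irradiated cells, with a log2 ratio of -0.15 (interval -0.18 to -0.13) that stayed below 0 in all alternatives run. No member was higher, where the background was 8.47%, and 4 were lower, where it was 18.3%. Clspn, the checkpoint mediator claspin, had 85.5 CPM in the control and 62.1 CPM in the irradiated library (log2 ratio -0.46). Ung (-0.38), Dtl (-0.35) and Pcna (-0.34, 196 and 155 CPM) were the others. Rrm2, at 56.7 and 67.1 CPM (0.24), was the highest member here too, though under the size rule, and E2f8, Gins2 and Hells followed at 0.06, 0.04 and 0.01. Genes of G2 and mitosis summed to 8648 CPM in the control and 9423 CPM in the irradiated library of this cluster, the opposite direction to the 37 genes.

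In the 4 compared clusters without a name, the sums differed by log2 ratios of 0.03 to 0.20. Cluster 0, led by Otos, Vldlr and Hlf, had 5 higher and no lower members (backgrounds 8.99% and 23.1%), with Rrm2 at 0.72, Cdc45 and Tyms at 0.37 and 0.36, Gins2 at 0.36, and Dtl, Blm, Dscc1 and Pola1 lowest at -0.31 to -0.21. Cluster 1, led by Wfdc17, Gm32554 and Ccl3, had 9 higher and none lower (backgrounds 10.9% and 17.7%), from 1674 control but only 160 irradiated cells. There Rrm2 was at 0.96, E2f8 at 0.56, Uhrf1 at 0.54 and Mcm2 at 0.38. Cluster 2 was itself led by replication genes, with Ung, Gins2, Tipin, Hells, Dscc1 and Uhrf1 among its 25 leading genes even though these were left out of the clustering. It had 2 higher (5.41%, against a background of 13.1%), Rrm2 at 0.79 and Cdc45 at 0.38. Another 2 were lower (5.41%, against 14.7%), Dtl at -0.33 and Ung at -0.33. Cluster 4, led by Ctsg, Ccr2 and Ly86, had 2 higher (5.41%, against a background of 9.76%), Rrm2 at 0.67 and Cdc6 at 0.40. None was lower there (background 9.55%).

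**Figure D4:**
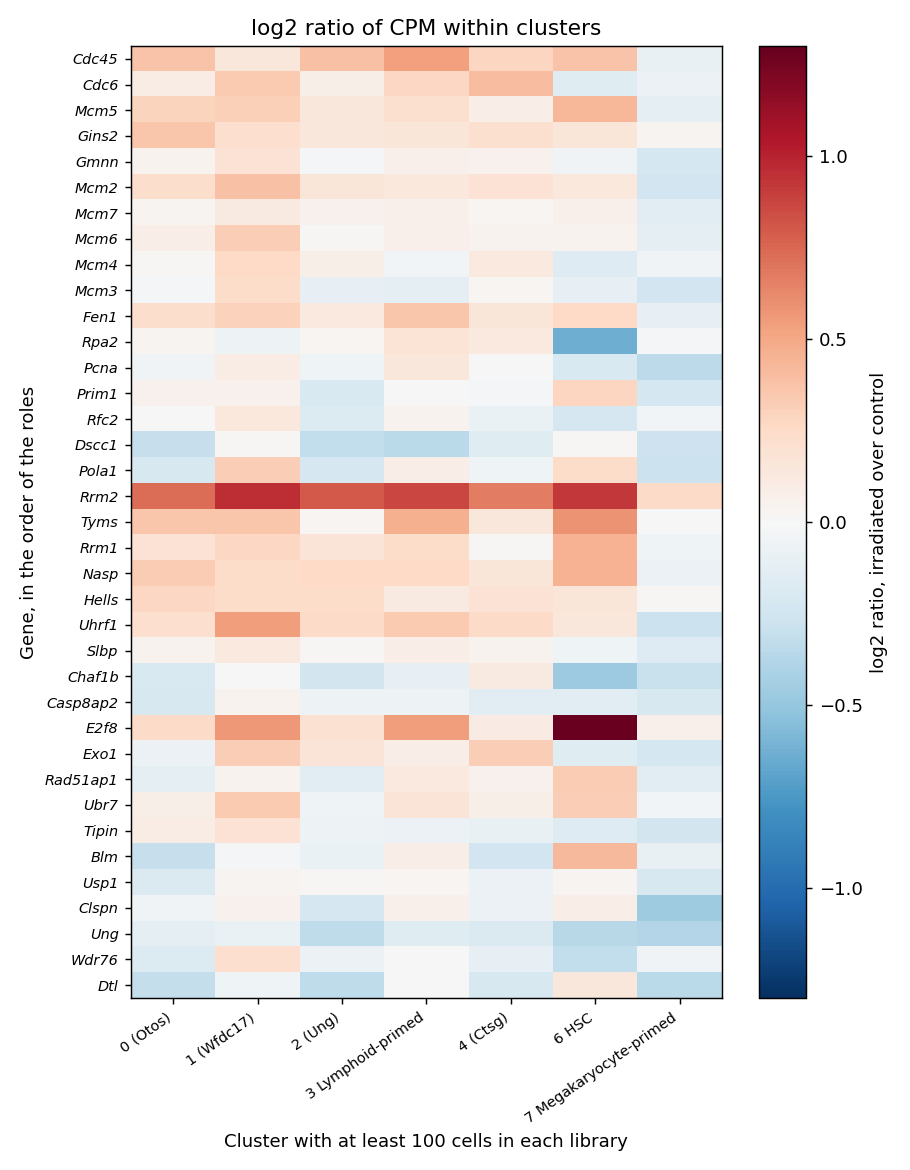
log2 ratio of CPM, irradiated over control (colour), for the 37 genes in the order of their roles (rows) in the 7 clusters compared (columns). Rrm2 is the 1 row above 0.24 in every column, and the megakaryocyte-primed column is mostly below 0 with Clspn at -0.46.

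Across these 7 clusters Rrm2 was higher in irradiated cells in 6, with log2 ratios from 0.24 to 0.96 and a median of 0.79. Cdc45 and Tyms were higher in 4 clusters each, and E2f8 in 3. Ung was lower in 3 clusters and between -0.38 and -0.09 in all 7, and Dtl was lower in 2, with a range from -0.35 to 0.15. The ring subunits Mcm3, Mcm4, Mcm6 and Mcm7 passed the size rule in none. Rrm2 is also among the 25 leading genes of cluster 4, so its level differed between clusters as well as between libraries: it ran in control cells from 13.4 CPM in HSC-like to 121 CPM in neutrophil-primed-like and 257 CPM in B lineage-like cells.

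Since replication transcripts change through the cycle, members were also compared between cells with like numbers of G2 and mitosis UMIs after thinning to 5000 UMIs, in ranges set after the data were seen. In control cells 11.3%, 32.0%, 25.2%, 13.04% and 18.5% held 0 to 5, 6 to 10, 11 to 20, 21 to 40 and 41 or more such UMIs, and in irradiated cells 2.99%, 12.1%, 23.4%, 31.8% and 29.8%. Irradiated cells were thus placed higher on this scale, and 23.9% of control and 15.6% of irradiated cells lay at a boundary between ranges. Hmgb2 alone gave 1540 of the list's 6048 CPM in the control and 1986 of its 7299.6 CPM in the irradiated library. The mix of clusters was not held fixed within ranges, and its part in the values below was not tested. The mean number of member UMIs was highest at 21 to 40 in both libraries. In the order of the ranges it was 5.16, 7.87, 16.2, 24.7 and 16.7 in control and 5.40, 9.30, 16.9, 21.3 and 14.9 in irradiated cells. The irradiated mean was above control in the 3 lower ranges and below it in the 2 upper ones. Rrm2 in the range 11 to 20 had means of 0.120 UMIs per control and 0.336 per irradiated cell (215 and 396 UMIs, ratio 2.80). In the range 21 to 40 it had 0.487 and 0.776 (452 and 1245 UMIs, ratio 1.59), and at 41 or more 0.415 and 0.453 (ratio 1.09). In the range 6 to 10 it had a ratio of 3.14, from 38 and 32 UMIs, and at 0 to 5 it had 6 and 3 UMIs, too few to read. From the lowest range to the highest, Tyms had ratios of 1.80, 2.53, 1.56, 0.84 and 1.03, the first from 56 and 19 UMIs. Dtl had ratios of 1.23, 1.08, 0.82, 0.56 and 0.61 in the same order, the first from 104 and 24 UMIs and the next from 488 and 141. No intervals are given for these ratios. The excess of Rrm2 in irradiated cells was smaller in the 2 ranges with most G2 and mitosis transcripts than in those from 6 to 20. Dtl was below control in the 3 ranges from 11 up.

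**Figure D5:**
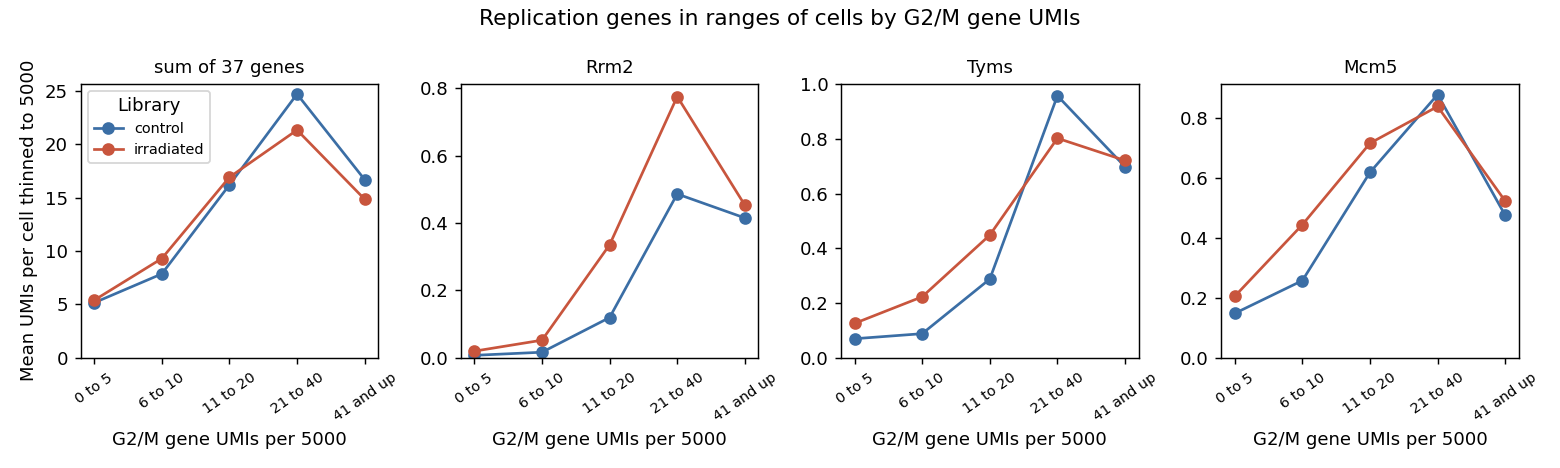
Mean UMIs per cell thinned to 5000 UMIs (y axis) of the sum of the 37 genes, Rrm2, Tyms and Mcm5, in ranges of cells by UMIs of the G2 and mitosis genes (x axis), for control and irradiated cells. The sum peaks at 21 to 40 in both libraries (24.7 and 21.3), and Rrm2 there is at 0.487 in control and 0.776 in irradiated cells.

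How far members varied together from cell to cell is given as a description, over 7122 control and 5053 irradiated cells thinned to the same depth. The correlation of a member with the sum of the others was highest for Mcm3 (0.48) and Mcm6 (0.47) in control and for Nasp (0.36) and Mcm6 (0.36) in irradiated cells, with lowest values of 0.13 for Ubr7 in control and 0.10 for Blm in irradiated cells. The sum of members correlated with that of the G2 and mitosis genes at 0.46 in control and 0.26 in irradiated cells. Rrm1 was the member closest to the G2 and mitosis sum (0.40 and 0.26), and Ung the farthest (-0.001 and -0.14). Of 5211 other genes ranked by the lower of both libraries' correlations with the members' sum, the first 10 were Ptma, Dut, Stmn1, Ppia, Pclaf, Ranbp1, Hsp90aa1, Mif, Ran and Tuba1b. Their lower correlations ran from 0.54 for Ptma, prothymosin alpha, to 0.42 for Tuba1b, an alpha tubulin, and included Dut, which makes dUMP for thymidylate synthesis, at 0.52. All points of a library share its preparation and sequencing, and genes with more UMIs can reach higher values.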

How the data were processed

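The files hold raw counts of UMIs per gene and cell barcode, deposited by the authors as 1 filtered matrix per library. Cell Ranger 2.1.1 and build mm10 are named per the submitters' processing notes, whereas the matrix headers carry software version 3.1.0. The 37 members and all gene lists were chosen with earlier results of these data known.

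Barcodes with at least 1000 UMIs, 500 genes and at most 10% mitochondrial UMIs were kept, which removed 496 control and 468 irradiated barcodes of 7686 and 5596. Scrublet (scanpy 1.11.5) marked and removed 2 control and 16 irradiated cells (0.0278% and 0.312%), too few for it to have worked, so an alternative leaves out the 6% of cells with the highest doublet scores. UMIs were summed over cells and scaled to 1000000 (CPM). Intervals are conditional on the total of both libraries. Higher or lower means a CPM at least 25% above that of the other library at a mean of at least 5 CPM and at least 50 UMIs in all.

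Clustering used 2000 variable genes, 30 principal components, 15 neighbours per library and Leiden resolution 1. It left out the cell cycle lists and 1647 genes correlating with their sums above 0.2, besides ribosomal, mitochondrial and sex-linked genes. Names need 3 listed markers, detected in at least 10% of cells, among the 25 leading genes, with no other list ahead among the first 10. No name was given where another list tied among the first 10 and held the first gene, as in cluster 4. The same held for low depth with no marker of the list among the first 10. This naming rule, the correlation limit and the ranges of G2 and mitosis UMIs were set after the data were seen, and a class II cluster with Xcr1 and Clec9a was left without a name. Values are named for the 10 highest and 6 lowest members over all cells, Mcm2 to Mcm7 and Pcna, up to 4 highest and 4 lowest members per cluster, 5 and 5 other replication genes, and the first 10 covarying genes. Other members were added by role, except 1 whose own value is not reported here. Ratios and their intervals were tested on simulated gene totals, which held no spread between cells or libraries beyond counting error. Thinning was checked on part of the control barcodes. The other steps were not tested in this way.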

Additional observations from a re-analysis of the deposited data

How the results depend on the processing

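With 1 library a group, no library could be left out and no difference has a replicate check. No paired analysis was possible because each group holds a single library. Of the 37 members' ratios over all cells none that passed the size rule changed sign, and all 9 lay between log2 ratios of 0.24 and 1.40 under each alternative run. Values that moved are given here, and the cause was not tested. With each cell weighted equally, 16 members were higher, the median log2 ratio of members was 0.27, the summed ratio 0.30 over all cells, 0.23 in lymphoid-primed-like and -0.12 in megakaryocyte-primed-like cells, and 0.23 at the control mix of classes, with 0 lower in lymphoid-primed-like cells. Thinned to 5000 UMIs, 16 were higher over all cells (median 0.28, sum 0.29), 12 higher and 0 lower in lymphoid-primed-like cells (sum 0.20), 7 lower in megakaryocyte-primed-like cells, and the ratio at the control mix was 0.22. Centring on the median of all genes, which shifts every ratio by 0.06, gave a median of 0.20 and sums of 0.23 over all cells, 0.21 at the control mix and -0.10 in megakaryocyte-primed-like cells, with 2 lower there. A ratio of at least 1.5 left 3 members higher over all cells, 1 higher and 0 lower in lymphoid-primed-like, 2 higher and 1 lower in HSC-like, and 0 lower in megakaryocyte-primed-like cells. At most 5% mitochondrial UMIs gave 5 higher and 1 lower over all cells (median 0.061, sum 0.080), 10 higher and 0 lower in lymphoid-primed-like cells (0.21), 1 higher in HSC-like cells (-0.061), and 0.057 at the control mix. All barcodes gave 2 higher in lymphoid-primed-like cells (0.020), 16 higher in HSC-like cells (0.23) and 2 lower in megakaryocyte-primed-like cells. Without the 6% highest doublet scores, 13 were higher and 0 lower in lymphoid-primed-like cells (0.28), and the ratio at the control mix was 0.12. Leiden resolution 0.5 gave 11 higher and 0 lower in lymphoid-primed-like cells (0.21), 0 lower in HSC-like cells (0.16) and 0.15 at the control mix. Resolution 2 gave 19 higher and 0 lower in lymphoid-primed-like cells (0.34), 17 higher and 2 lower in HSC-like cells (0.24) and 0.11 at the control mix. With only the cell cycle lists left out of clustering, 2 were higher in lymphoid-primed-like cells (-0.020), 3 higher and 8 lower in HSC-like cells (-0.17) and 7 lower in megakaryocyte-primed-like cells (-0.19), and the ratio at the control mix was 0.069. With 30 neighbours from all cells, 1 was higher and 1 lower in megakaryocyte-primed-like cells (-0.073), and the ratio at the control mix was 0.069. Added after the data were seen, leaving out the cluster led by replication genes gave a median of 0.19 and a sum of 0.22 over all cells, and each cluster as its own class gave 0.075 at the control mix. No compared HSC-like class was found without the highest doublet scores or with 30 neighbours, and no megakaryocyte-primed-like one at resolution 0.5, so these gave no value. Depth limits values within clusters, since some members in HSC-like cells and in cluster 1 rest on under 100 irradiated UMIs.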
